A study of Mus musculus with 8 samples.

Results

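Synaptotagmin genes were examined in RNA-seq libraries of mouse hippocampus. The 10 genes considered were Syt1, Syt2, Syt3, Syt4, Syt5, Syt6, Syt7, Syt11, Syt12 and Syt17. They were chosen by name, and each was read from the row whose symbol equals that name. This gave 9 of the 10, among 24338 features with a symbol and 56575 features in all. Syt11 has no row of its own: the table merges it with the noncoding gene 1500004A13Rik in 1 feature, whose values are given separately and stand for both genes.

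The tissue came from C57BL/6 mice 8 weeks old, with 4 libraries labelled Slm2KO and 4 labelled WT. SLM2, the product of Khdrbs3, is an RNA-binding splicing regulator, and the study compared expression and splicing between the genotypes. The labels give no sex, and no detail of the deleted allele beyond the genotype, and they do not state that the libraries came from separate animals. The p-values therefore describe the spread between samples, which may be technical. The deposited values are normalised read counts, scaled per library but not by gene length.

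Synaptotagmins are membrane proteins with paired C2 domains. In several of them these domains bind calcium and then drive vesicle fusion together with the SNARE proteins. Syt1, Syt2 and Syt9 are the fast sensors of synchronous transmitter release, Syt7 is a slower sensor of high affinity that serves asynchronous release and facilitation, and Syt4, Syt11 and Syt12 are members whose C2 domains lack part or all of the calcium binding. In the forebrain Syt1 is the main fast sensor, whereas Syt2 is known from the hindbrain and from terminals of parvalbumin interneurons.

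Of the 10 genes, 5 matched a promoter in RefSeq (GRCm38.p6); Syt4, Syt5, Syt7, Syt12 and Syt17 were not matched. Of the 9 genes with a row of their own, upstream sequence is shown for Syt1, Syt2 and Syt6. Syt1 had the highest level per length and Syt2 the lowest. Syt6 was the only one that did not have its lowest value in the library Slm2KO 4. The runs are the 250 bases before the RefSeq gene start nearest to the start of the gene in the table, 5′ to 3′ on the gene's strand. Syt1 lies at chr10:109010976-109011225 on the minus strand, Syt2 at chr1:134646362-134646611 on the plus strand and Syt6 at chr3:103575032-103575281 on the plus strand. Capitals mark the GC box (GGGCGG) and the E-box (CACGTG), on either strand.
Syt1: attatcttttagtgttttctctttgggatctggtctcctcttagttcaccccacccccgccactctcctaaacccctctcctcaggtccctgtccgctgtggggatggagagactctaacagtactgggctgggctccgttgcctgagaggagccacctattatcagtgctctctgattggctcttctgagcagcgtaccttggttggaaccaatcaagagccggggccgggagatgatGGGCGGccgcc
Syt2: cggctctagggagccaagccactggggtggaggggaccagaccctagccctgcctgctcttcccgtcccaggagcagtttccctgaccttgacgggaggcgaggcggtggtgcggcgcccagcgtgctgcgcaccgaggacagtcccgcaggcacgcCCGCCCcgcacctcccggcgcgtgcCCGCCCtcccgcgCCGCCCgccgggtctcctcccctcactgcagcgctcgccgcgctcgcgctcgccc
Syt6: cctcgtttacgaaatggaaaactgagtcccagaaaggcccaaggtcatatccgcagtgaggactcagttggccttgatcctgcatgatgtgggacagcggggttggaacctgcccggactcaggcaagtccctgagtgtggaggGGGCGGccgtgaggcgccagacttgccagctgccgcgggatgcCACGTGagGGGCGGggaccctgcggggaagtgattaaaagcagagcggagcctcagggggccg

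The Syt2 window was the richest of the 3 in G and C (76.0%), against 62.8% for Syt6 and 56.4% for Syt1. It held 3 GC boxes and 30 CpG dinucleotides, whereas Syt6 had 2 GC boxes, 1 E-box and 15 CpG, and Syt1 had 1 GC box and 8 CpG. A GC box occurs in 32.7% and an E-box in 6.02% of 32851 promoter windows of that length. The full cyclic AMP response element TGACGTCA, present in 1.55% of the windows, was not found in these 3. These matches describe the letters only.

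Each library held 104020058 to 125985224 recovered reads, and library pairs correlated at r = 0.979 to 0.990 on the log2 scale. No 2 libraries of a label were alike within counting error, with a chi-square over its degrees of freedom between 18.8 and 149. Khdrbs3, the targeted gene, was not lower but higher under the Slm2KO label, at 29749 ± 3040 against 22051 ± 2387 under the WT label (SD, n = 4 each). The interval of the fitted change was 1.17- to 1.56-fold, but Khdrbs3 did not pass in limma (adjusted p = 1.00). One value per gene cannot show loss of part of a transcript, and the labels do not say which part was deleted, so directions refer to the labels. Khdrbs2, the related gene that encodes SLM1, was the only feature past the threshold in limma, at 2481 ± 290 in Slm2KO-labelled and 1096 ± 98.4 in WT-labelled libraries (SD, n = 4 each; adjusted p = 0.00761). Khdrbs1, which encodes SAM68, was at 13826 ± 900 in Slm2KO-labelled and 10685 ± 134 in WT-labelled libraries (SD, n = 4 each), which did not pass in limma (adjusted p = 0.429). Libraries of both labels did not overlap for Khdrbs1, Khdrbs2 or Khdrbs3, as for 2.50% of all features.

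The tissue label was checked against neuronal markers: Rbfox3, Snap25, Slc17a7 and Neurod2 were all detected, with a mean of 129032 for Snap25. Choroid plexus epithelium, a tissue next to the hippocampus, left RNA in unequal amounts between libraries. Its markers, 8 of 8, were all detected, none at 0, with a summed level of 388144 to 2333530 in Slm2KO-labelled and 228641 to 1844830 in WT-labelled libraries. Its main transcript, Ttr, was highest in Slm2KO 4 (2262369) and WT 3 (1791307) and lowest in WT 2 (219052).

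The fast sensor Syt1 had the highest level of the 9 genes, and the other fast sensor among them, Syt2, had the lowest. Levels of different genes are compared here as normalised read count per kb of merged exons (GENCODE vM21), with the mean ± SD over the 8 libraries. Syt1 reached 7775 ± 738 per kb. Syt5, a synaptotagmin of dense-core vesicles, followed with 4273 ± 331 per kb. Syt3, a sensor of high calcium affinity known for the internalisation of AMPA receptors, came next with 2620 ± 266 per kb.

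The slow sensor Syt7 stood at 2003 ± 113 per kb, close to Syt4 with 1822 ± 138 per kb. Syt4 is an activity-regulated member found on neuropeptide and neurotrophin vesicles. Syt17, a member without a transmembrane segment, had 1305 ± 187 per kb. Syt12, a synaptic vesicle member phosphorylated by protein kinase A, had 411 ± 33.3 per kb and Syt6, known from acrosome exocytosis in sperm, 243 ± 20.7 per kb. Syt2 had only 73.4 ± 12.4 per kb.

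Most steps in this order were wider than the spread between libraries. The ranges of Syt1 and Syt5, of Syt5 and Syt3, of Syt4 and Syt17, and of all later neighbours did not overlap. Ranges of Syt3 and Syt7 overlapped, although Syt3 was the higher in each of the 8 libraries, and Syt7 exceeded Syt4 in 7 of 8. With the longest coding transcript as the length, Syt17 moved up beside Syt7 (ratio of means 1.01, Syt17 higher in 5 of 8 libraries), and both stood above Syt4. The 1.82-fold step of Syt1 over Syt5 depended on the length as well. It was 2.31-fold with the longest coding transcript. It was 1.34-fold with exons inside the span of the table's feature, which leaves out the upstream exons annotated for Syt5.

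**Figure D1:**
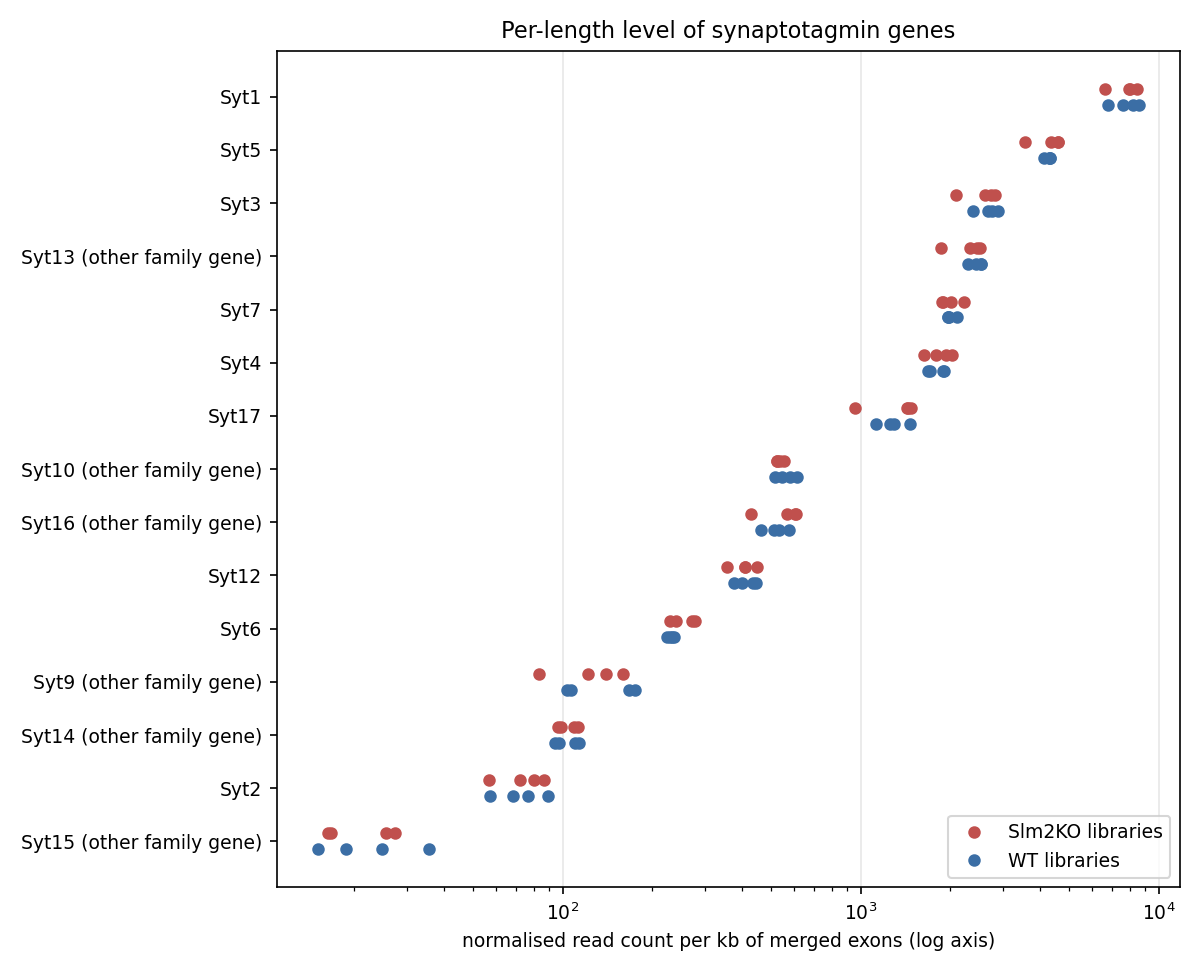
Normalised read count per kb of merged exons, on a log axis, for the 9 synaptotagmin genes and 6 other family genes; each point is 1 library, Slm2KO-labelled in red above WT-labelled in blue. Syt1 lies at 6620 per kb or above in all 8 libraries and Syt2 at 89.6 per kb or below, and the points of both labels overlap for each of the 9 genes.

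Placed against the other family members with a row of their own, Syt1 still had the highest level per length. Syt15 (22.5 per kb) and Syt8 (1.76 per kb) lay below Syt2. Syt11 has no place in this order, because its merged feature also holds 1500004A13Rik. That feature had a mean of 155147 normalised read counts, against 64832 for Syt1. Whether Syt11 stands above Syt1 per length was not determined. Syt13, a member that does not bind calcium, had 2372 ± 228 per kb, between Syt3 and Syt7. Syt10 had 549 ± 33.5 per kb and Syt16 had 537 ± 64.6 per kb, both between Syt17 and Syt12 (SD over 8 libraries each). The places of Syt10 and Syt16 depended on the length: with the longest coding transcript both lay below Syt12, and with exons inside the feature Syt16 reached 1328 per kb, beside Syt17 (1305 per kb). Syt9, the remaining fast sensor, reached 132 ± 33.4 per kb and was higher than Syt2 in 7 of the 8 libraries. The mouse names of Syt5 and Syt9 have been exchanged in parts of the literature, and the table lists SytIX as a synonym of Syt5 and Sytv as one of Syt9. Values here follow the symbol column.

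Ratios within a library set the fast sensors against the slow one. Syt1 exceeded Syt7 per length by 3.53- to 4.24-fold in Slm2KO-labelled libraries and by 3.40- to 4.17-fold in WT-labelled ones. Syt1 exceeded Syt2 by 97.3- to 117-fold in Slm2KO-labelled and by 91.6- to 118-fold in WT-labelled libraries. These ratios do not depend on how libraries are scaled, and the ranges of both labels overlapped. They do depend on the length used. With the longest coding transcript the means over all libraries were 13451 per kb for Syt1, 2264 for Syt7 and 81.4 for Syt2, so Syt1 stood further above both. Of the summed per-length level of the 9 genes, Syt1 took 36.1% to 39.0% and Syt2 0.306% to 0.425% with merged exons. The share of Syt1 was 43.3% to 46.3% with the longest coding transcript and 33.2% to 36.1% with exons inside the feature.

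None of the 9 synaptotagmin genes differed between the labels past the threshold (adjusted p under 0.05, limma on log2(value + 1)). Over all 25667 features tested, 0.00390% were called. None of the 9 had an unadjusted p under 0.05, a level that 3.52% of all features reached, and in all 9 the libraries of both labels overlapped, while 2.50% of all features had labels that did not overlap. On the recovered reads, edgeR and DESeq2 also called 0 of the 9, and 0.00390% and 0.0351% of all features. All 9 passed the filter on low values. The log2 differences ran from -0.07 for Syt3 to 0.14 for Syt6, with 4 positive and 5 negative and a median of -0.0031, beside -0.01 over all features tested. For each of the 9 the 95% interval excluded a 1.5-fold change in either direction, and for 5 of them a 1.2-fold change.

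**Figure D2:**
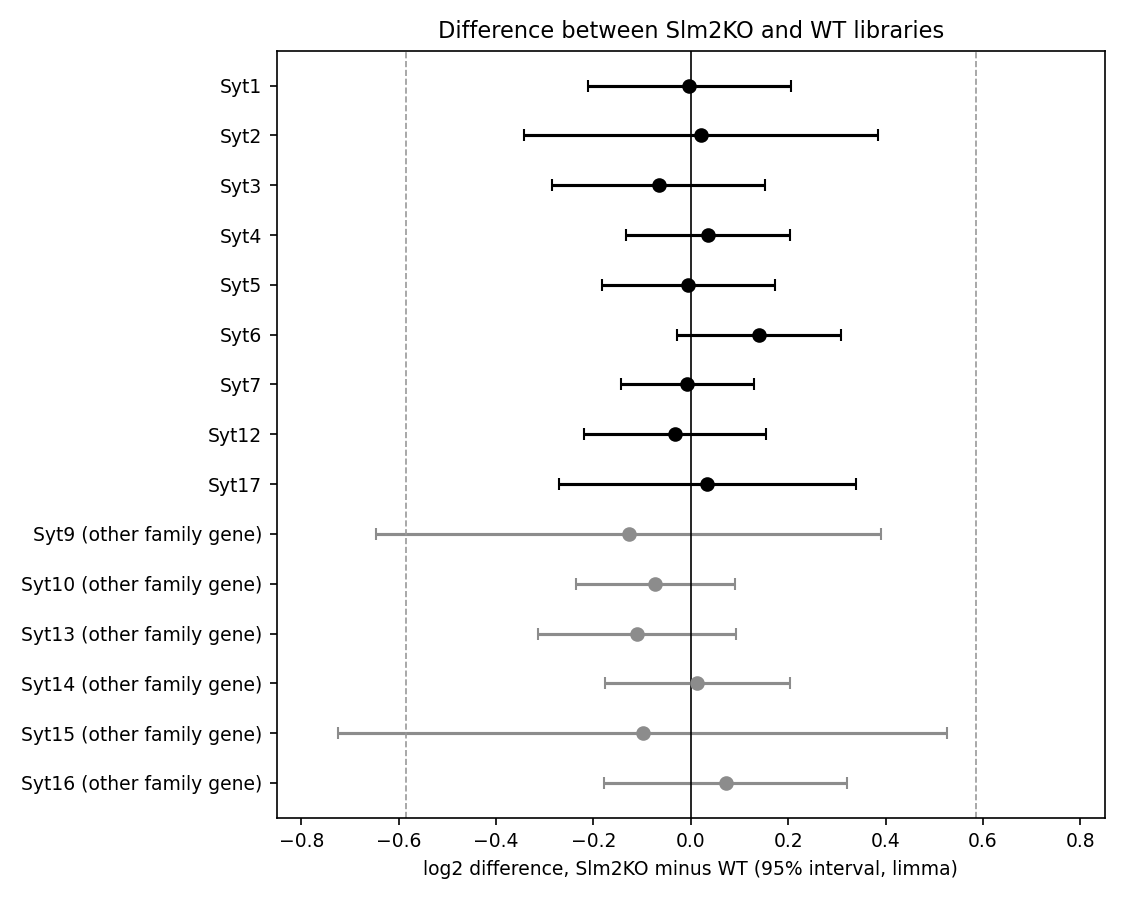
Log2 difference, Slm2KO minus WT labels, with its 95% interval from limma, for the 9 synaptotagmin genes in black and 6 other family genes in grey; dashed lines mark a 1.5-fold change. All 9 black intervals include 0 and lie inside the dashed lines.

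Among the fast sensors, Syt1 had normalised read counts of 66780, 70520, 66568 and 55196 in Slm2KO-labelled libraries 1 to 4, against 63277, 71542, 56317 and 68453 in WT-labelled libraries 1 to 4 (chromosome 10, 108497651 to 109010975, minus strand, mm10). Slm2KO 4 and WT 3 were the low libraries in their groups, and the groups overlapped almost completely. The means were 64766 ± 6633 and 64897 ± 6659 in Slm2KO- and WT-labelled libraries (SD, n = 4 each; exact permutation p = 1.00, two-sided). The interval of the fitted change was 0.864- to 1.15-fold.

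Syt2 had 611, 664, 550 and 431 in Slm2KO-labelled libraries 1 to 4, against 519, 586, 437 and 684 in WT-labelled libraries 1 to 4 (chromosome 1, 134646677 to 134753147, plus strand). The same libraries were lowest, and the widest span among the 9 genes, 1.59-fold, lay between Slm2KO 4 and WT 4. Syt2 rested on 400 to 715 reads, so counting error alone came to 5.0% in the library with the fewest. Its log2 difference was 0.02 (SE 0.163; exact permutation p = 0.914), and its interval, 0.788- to 1.30-fold, was the widest of the 9.

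The slow sensor Syt7 had 14129, 16631, 15097 and 14029 in Slm2KO-labelled libraries 1 to 4, against 14767, 15720, 14859 and 14729 in WT-labelled libraries 1 to 4 (chromosome 19, 10389090 to 10453181, plus strand). Replicate 2 was the highest under both labels. Syt7 varied least of the 9 genes, with a 1.19-fold span over all libraries, and its interval of 0.905- to 1.09-fold was the narrowest (log2 difference -0.0074; exact permutation p = 0.971).

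Syt3, the other high-affinity sensor, had 8820, 8540, 8150 and 6494 in Slm2KO-labelled libraries 1 to 4, against 8588, 9009, 7431 and 8324 in WT-labelled libraries 1 to 4 (chromosome 7, 44384126 to 44400029, plus strand). Slm2KO 4 was below all others. The log2 difference of -0.07 (exact permutation p = 0.629) was the most negative of the 9 and turned to 0.03 without Slm2KO 4.

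Of the vesicle members Syt4 and Syt5, the first had 7512, 7875, 6998 and 6344 in Slm2KO-labelled libraries 1 to 4, against 6667, 7405, 6550 and 7378 in WT-labelled libraries 1 to 4 (chromosome 18, 31437808 to 31447415, minus strand). Syt5 had 10955, 10395, 10913 and 8450 in Slm2KO-labelled libraries 1 to 4, against 10184, 10311, 9828 and 10313 in WT-labelled libraries 1 to 4 (chromosome 7, 4539766 to 4546567, minus strand). Syt5 was tight under the WT label (SD 229) and wide under the Slm2KO label (SD 1180) through Slm2KO 4. The log2 differences were 0.03 for Syt4 and -0.0048 for Syt5 (exact permutation p = 0.657 and 1.00).

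Syt17 had 7667, 7451, 7533 and 4980 in Slm2KO-labelled libraries 1 to 4, against 6728, 7599, 5850 and 6529 in WT-labelled libraries 1 to 4 (chromosome 7, 118380718 to 118448223, minus strand). The first 3 Slm2KO-labelled libraries lay close together and the last far below them. The log2 difference was 0.03 (SE 0.137; exact permutation p = 0.971) with all libraries. It was 0.18 without Slm2KO 4 and 0.25 without both WT 2 and Slm2KO 4, the extremes of Ttr. Unadjusted limma p-values were then 0.0440 and 0.00355, but neither passed (adjusted p = 0.898 and 0.770). Of all features, 4.80% had an unadjusted p under 0.05 without Slm2KO 4, and 6.32% without both, where 0.00390% were called.

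Syt12 had 2270, 2268, 2492 and 1969 in Slm2KO-labelled libraries 1 to 4, against 2214, 2477, 2090 and 2412 in WT-labelled libraries 1 to 4 (chromosome 19, 4445908 to 4477448, minus strand). The ranges of both labels overlapped, with a log2 difference of -0.03 (exact permutation p = 0.714).

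Syt6 had 1620, 1334, 1399 and 1585 in Slm2KO-labelled libraries 1 to 4, against 1359, 1379, 1331 and 1302 in WT-labelled libraries 1 to 4 (chromosome 3, 103575282 to 103645569, plus strand). Slm2KO 1 and Slm2KO 4 stood above all other libraries, while Slm2KO 2 lay within the WT-labelled range. The log2 difference was 0.14 (SE 0.076; interval of 0.980- to 1.24-fold; exact permutation p = 0.114), the largest of the 9 and the only one that kept its sign under all 22 alternatives, between 0.10 and 0.19. Alternatives that change only the filter, the trend or the covariates leave this difference as it is, so they could not turn its sign. Syt6 did not pass (limma adjusted p = 1.00), and without Slm2KO 1 its log2 difference fell to 0.10. Without Slm2KO 2 it rose to 0.19, with an unadjusted limma p of 0.0306, which did not pass either (adjusted p = 0.993). Without that library 929 of 25667 features had an unadjusted p under 0.05. The 3′ end of the Syt6 feature overlaps Atg4a-ps, a feature on the opposite strand with a mean of 714. The kit is named only as TruSeq RNA, and whether reads were counted by strand was not determined. Whether reads in that overlap can be told apart is therefore not known. Atg4a-ps had 709 ± 136 in Slm2KO-labelled and 718 ± 103 in WT-labelled libraries (SD, n = 4 each), and its part in the Syt6 values was not tested.

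The merged feature of Syt11 and 1500004A13Rik (chromosome 3, 88744701 to 88832548, minus strand) had 159967, 163466, 161495 and 137275 in Slm2KO-labelled libraries 1 to 4, against 152042, 163244, 143517 and 160170 in WT-labelled libraries 1 to 4. Slm2KO 4 and WT 3 were again lowest. The log2 difference was 0.0057 (interval of 0.898- to 1.12-fold; exact permutation p = 0.886). How much of it is Syt11 was not determined, and Gon4l on the opposite strand also overlaps it. On the same strand, 3 features overlap it: Il6ra (mean of 384) and separate features of 1500004A13Rik (means of 2585 and 2550).

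**Figure D3:**
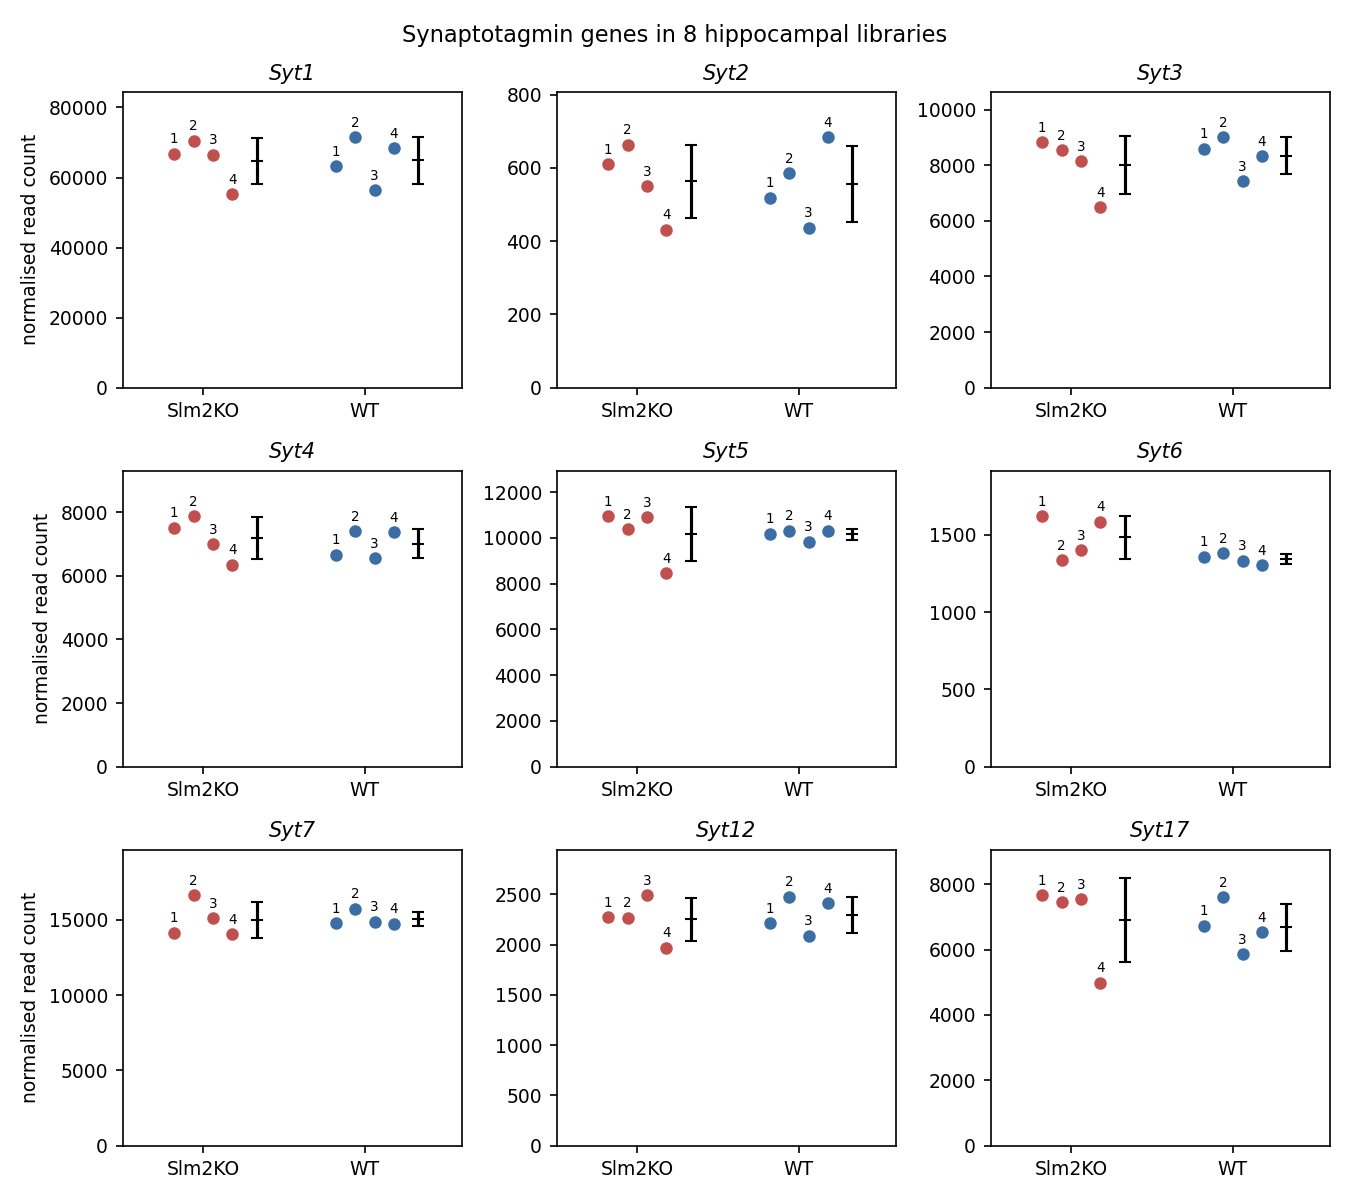
Normalised read counts of the 9 synaptotagmin genes, 1 panel per gene, with a point per library numbered by replicate, Slm2KO-labelled on the left and WT-labelled on the right; bars are mean ± SD (n = 4 each) and axes start at 0. Slm2KO 4 is the lowest library in 8 of the 9 panels, Syt6 being the exception, and the labels overlap in all 9.

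The same libraries were low for most of the 9 genes. Slm2KO 4 was the lowest of all 8 libraries for 8 of the 9 genes, and Slm2KO 4 and WT 3 were the lowest pair for 7 of them. The exceptions were Syt6 and Syt7. The same 2 libraries had the highest Ttr. Across the 8 libraries, log2 values of Syt1 ran against log2 Ttr with r = -0.891 (Spearman rho = -0.976), and the other genes had r from -0.836 (Syt4) to -0.544 (Syt5), with Syt6 at 0.285. These are descriptions over n = 8 libraries that share 1 scaling each, and the part of tissue composition in them was not tested. In bulk tissue, fewer cells of a type and less RNA per cell cannot be told apart.

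All 4 neuronal markers were likewise lowest in Slm2KO 4. WT 3 was the next lowest for Rbfox3 and Slc17a7, but for Snap25 it was WT 1 and for Neurod2 WT 2. The 4 markers summed to 254685 to 353259 in Slm2KO-labelled and 294432 to 337561 in WT-labelled libraries. The 6 dentate granule cell markers, none at 0, summed to 22025 to 29491 in Slm2KO-labelled and 29203 to 30884 in WT-labelled libraries. All 6 had a negative log2 difference, against 53.9% of all features tested. Of the 6, 4 had an unadjusted limma p under 0.05, against 3.52% of all features, and 0 were called, against 0.00390%. Marker lists for neurons, CA2 and CA3 pyramidal cells, astrocytes and endothelium were also all negative (4 of 4 each). Lists for the remaining cell types had both signs. The part of the granule cell markers in the synaptotagmin values was not tested. Without Slm2KO 4, all 9 synaptotagmin genes had a positive log2 difference, with a median of 0.08, against 4 positive of 9 with all libraries. The signs turned the other way without Slm2KO 2, with 1 positive of 9 and a median of -0.04. Without Slm2KO 4, 0 of the 9 passed in limma, against 0.00779% of all features, and 1 (Syt17) had an unadjusted p under 0.05, against 4.80% of all features.

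**Figure D4:**
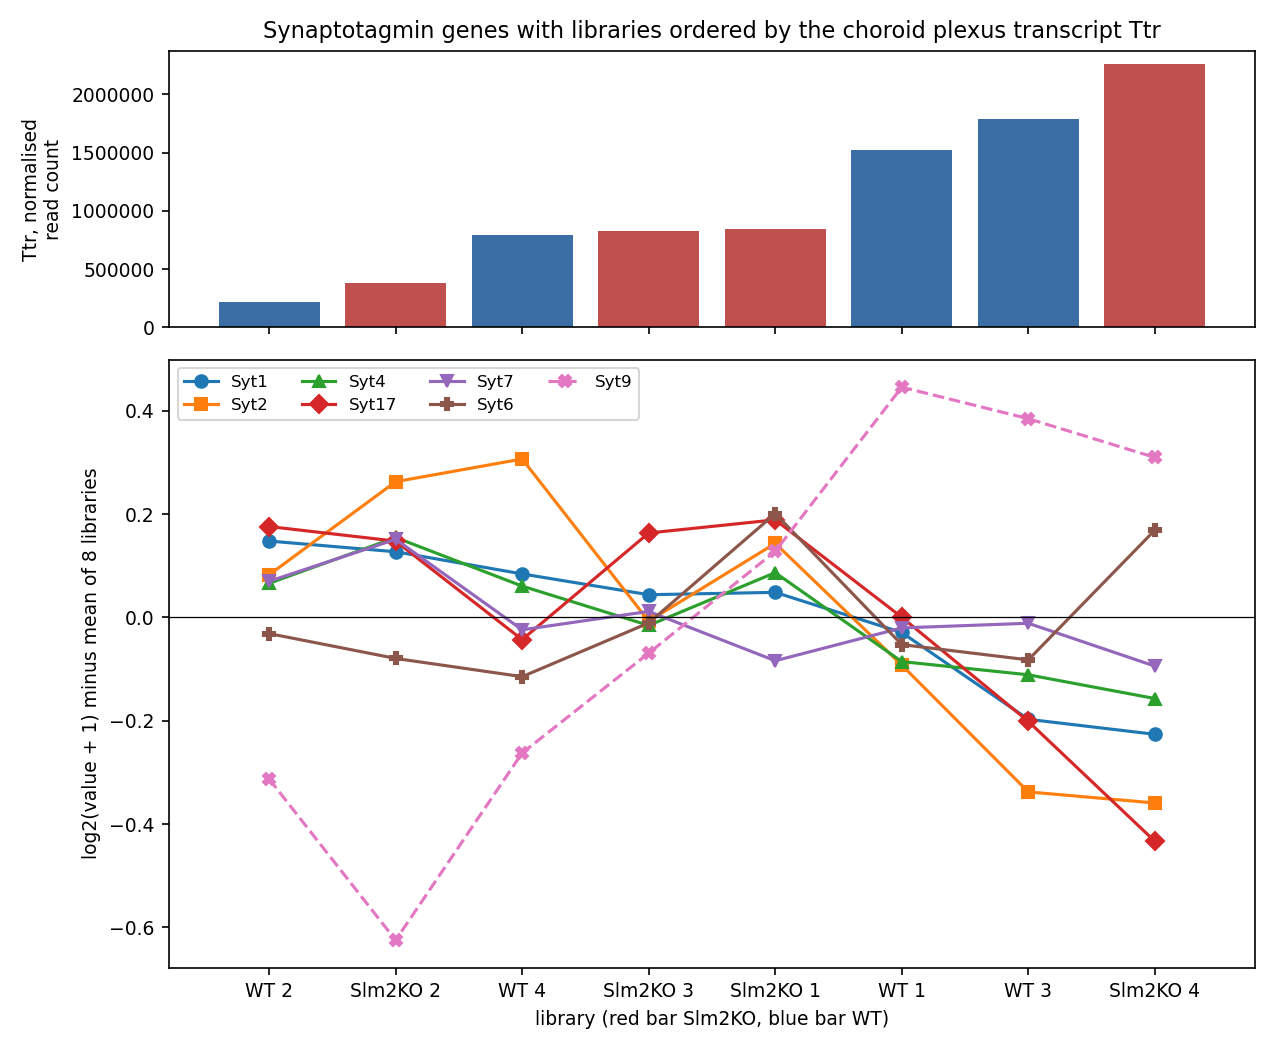
Top, normalised read count of Ttr, with libraries ordered from low to high (red bars Slm2KO-labelled, blue bars WT-labelled); bottom, log2(value + 1) of 6 synaptotagmin genes and Syt9 (dashed) minus the mean of the 8 libraries. Syt1, Syt2, Syt4 and Syt17 are lowest in WT 3 and Slm2KO 4, Syt7 stays within a narrow band, and Syt9 is high in the 3 libraries with the most Ttr.

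The members also moved with each other to different degrees. Over the 8 libraries Syt1 correlated with Syt2 at r = 0.918 and with Syt4 at r = 0.902, Syt17 with Syt5 at r = 0.927 and with Syt3 at r = 0.926, whereas Syt7 correlated with Syt1 only at r = 0.606 and Syt6 with Syt7 at r = -0.635. Syt2, known from parvalbumin terminals, had r = 0.630 with Pvalb, which was below its r with Syt1. With the interneuron markers Gad1 and Slc32a1, Syt2 had r = 0.446 and r = -0.428. The 7 interneuron markers, none at 0, summed to 69621 to 82296 in Slm2KO-labelled and 72294 to 77666 in WT-labelled libraries. Correlations of this kind share the scaling and the tissue make-up of each library and carry no test.

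Among 14994 other genes with a symbol and a mean of at least 100, the patterns most like that of Syt1 over the 8 libraries were those of Cars (r = 0.989), Slc24a3 (r = 0.986) and Snd1 (r = 0.984). For Syt2 they were Tdrkh (r = 0.988), St8sia5 (r = 0.985) and Stau2 (r = 0.984). For Syt7 they were 1700052N19Rik (r = 0.960), Zc3h13 (r = 0.949) and Dclre1c (r = 0.949). These are descriptions over n = 8 libraries, picked as the highest of many genes, with no test.

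In spread, too, the members differed. The SD of log2 values over the 8 libraries was 0.25 for Syt2 and 0.22 for Syt17, higher than in 85% and 80.5% of 17743 features with a mean of at least 100. It was 0.08 for Syt7, higher than in only 20.1% of them. Syt1 lay in the middle (0.14, higher than in 56.9%).

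The other synaptotagmins likewise had no member past the threshold. Of the 7 present, 6 were tested, with 0 called, against 0.00390% of all features tested. Of the 6, 2 were positive and 4 negative, against 53.9% of all features negative, with a median log2 difference of -0.09. Syt13 was at 8606 ± 1123 in Slm2KO-labelled and 9237 ± 435 in WT-labelled libraries (log2 difference -0.11), and Syt10 at 987 ± 26.9 and 1040 ± 79.6 in Slm2KO- and WT-labelled libraries (log2 difference -0.07; SD, n = 4 each). Syt9 ran opposite to Syt1 and Syt2 across libraries, with 557, 330, 486 and 632 in Slm2KO-labelled libraries 1 to 4, against 695, 410, 666 and 425 in WT-labelled libraries 1 to 4. It was highest in WT 1, WT 3 and Slm2KO 4, which hold the most Ttr (r = 0.854 with log2 Ttr, r = -0.802 with Syt1, r = -0.795 with Syt2; n = 8 libraries, a description). Syt8 had 0 to 7.39 over all libraries and did not reach the filter.

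Other proteins with paired C2 domains had 0 of 13 tested genes called, against 0.00390% of all features tested. Of the 13, 5 were positive and 8 negative, against 53.9% of all features negative, with a median of -0.03. Sytl2, a Rab27 effector, was at 2594 ± 170 in Slm2KO-labelled and 2304 ± 237 in WT-labelled libraries (log2 difference 0.17), and Rph3a, which encodes rabphilin, at 24407 ± 1743 in Slm2KO-labelled and 26404 ± 740 in WT-labelled ones (log2 difference -0.12; SD, n = 4 each). Neither passed in limma (adjusted p = 1.00).

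The partners of synaptotagmins in vesicle release, among them the SNAREs Snap25 and Vamp2, had 0 of 17 genes called, against 0.00390% of all features tested. Of the 17 genes, 16 were negative, against 53.9% of all features tested, and the median was -0.05. These signs changed when 1 library was left out: without Slm2KO 4, 5 of 17 were negative and the median was 0.02, and without Slm2KO 2, 17 of 17 were negative and the median was -0.09. Those with the smallest p were Cplx2, a complexin that clamps and promotes fusion, at 31018 ± 3695 in Slm2KO-labelled and 34602 ± 2374 in WT-labelled libraries (log2 difference -0.16), and Unc13a, which primes vesicles, at 4505 ± 546 in Slm2KO-labelled and 4999 ± 513 in WT-labelled ones (log2 difference -0.15; SD, n = 4 each). Neither passed in limma (adjusted p = 1.00).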

How the data were processed

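Total RNA of hippocampi was sequenced with the TruSeq RNA kit, per the labels' protocols. The deposited signal values are normalised read counts with mm10 coordinates, per the file header. The submitters' processing notes name DESeq, with no role, and list hg19. No aligner or counter is named in the sources used here. In each library 100% of values were whole multiples of 1 step within 0.001, which gave whole reads and 1 size factor per library. Slm2KO-labelled and WT-labelled libraries (4 each) were compared in limma 3.58.1 (R 4.3.3), as log2(value + 1) with a mean-variance trend, for 25667 features with a mean of at least 10, adjusted over all of them by Benjamini-Hochberg. For single genes, exact permutation tests (two-sided, 70 assignments of the labels) can reach no p below 0.0286. Lengths are from GENCODE vM21 (GRCm38, as mm10). Figures used Python 3.11.15 and matplotlib 3.10.9. Procedures were checked on simulated data. Alternatives included edgeR 4.0.16 and DESeq2 1.42.0 on the recovered reads, which called 1 and 9 features. The members, gene lists and tests were chosen with earlier results of these data known. Named list genes are the 2 with the smallest p per list, plus the 2 other synaptotagmins with the highest level per merged-exon length (Syt16 exceeds Syt10 with the other lengths); the most alike genes are the 3 with the highest r. Other genes, and the ratios and correlations picked out, were chosen after their values were seen.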

Additional observations from a re-analysis of the deposited data

Results flagged for a closer look

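Each gene and label was searched for a library far from the other 3, in 18 sets of 4 values, of which chance flags about 1 in 20. Syt17 in Slm2KO 4 had 4980 normalised read counts, with the nearest Slm2KO-labelled library at 7451, a gap of 0.920 of the range. The same library had the most Ttr (2262369) and the lowest Rbfox3 (9027); their part in the Syt17 value was not tested. Syt7 in WT 2 had 15720, with the nearest WT-labelled library at 14859, a gap of 0.869 of a narrow range.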

How the results depend on the processing

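No alternative called any of the 9 synaptotagmin genes: over 198 values (9 genes under 22 alternatives) the lowest adjusted p was 0.770 and the largest log2 difference was 0.25 in size. Between 0 and 8 of the 9 genes were negative; it was 8 without Slm2KO 2 and 8 within the higher number series. The sign stayed in 163 and turned in 35, and the cause was not tested. Settings that change only the filter on low values, the trend or the covariates leave the log2 difference as it is. The 163 therefore include values that could not turn. Leaving out single libraries gave log2 differences of -0.069 to 0.072 for Syt1, -0.089 to 0.143 for Syt2, -0.120 to 0.031 for Syt3, -0.011 to 0.093 for Syt4, -0.043 to 0.082 for Syt5, 0.096 to 0.190 for Syt6, -0.059 to 0.023 for Syt7, -0.083 to 0.030 for Syt12 and -0.028 to 0.184 for Syt17. Signs also turned for Syt1 with quantile normalisation (0.017), and for Syt5 in edgeR (0.0025) and DESeq2 (0.0036). Without the lowest and highest Ttr libraries they turned for Syt1 (0.121), Syt3 (0.070), Syt5 (0.089), Syt7 (0.045) and Syt12 (0.067). Within the lower number series of the labels they turned for Syt1 (0.028), Syt5 (0.058) and Syt7 (0.0088), and within the higher series for Syt2 (-0.168), Syt4 (-0.061) and Syt17 (-0.013); the number series were chosen after the data were seen.

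Across all features, 1 was called with all libraries. The count was 2 with a pseudocount of 10, 9 in DESeq2, 0 in limma without the trend (997 with an unadjusted p under 0.05), 0 within the lower number series (832 with an unadjusted p under 0.05) and 1 within the higher. It ranged from 0 to 2 when single libraries were left out: 0 without WT 1, WT 4, Slm2KO 1 or Slm2KO 3 (596 to 1241 with an unadjusted p under 0.05) and 2 without Slm2KO 2 or Slm2KO 4. The replicate block left it at 1. Deviations of same-numbered libraries correlated at 0.124, 0.323, -0.065 and -0.122. Slm2KO 1 and Slm2KO 2 correlated best with the WT-labelled library of their own number, and Slm2KO 3 and Slm2KO 4 did not. Such correlations also carry the tissue make-up of each library, so whether replicate numbers pair the samples was not settled. The order of per-length levels kept 6 of 9 places with the longest coding transcript and 9 of 9 with exons inside the table's feature, a length chosen after the data were seen. Among the 9 genes counting error was largest for Syt2 (400 to 715 reads), at 5.0% in the library with the fewest. The SD of Syt2 between libraries was larger, at 100 on a mean of 564 in Slm2KO-labelled and 105 on 557 in WT-labelled ones. For Syt1 counting error was 0.442% or less.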
